A study of Mus musculus with 42 samples.

Results

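The cytosolic ribosomal protein genes were followed through 34 bulk RNA-Seq libraries and 1 joined single-cell matrix of mouse uterine NK cells. They were chosen by symbol alone, as the genes named Rpl, Rps or Rplp with a number and at most 1 closing letter (a, x or l), which leaves the listed pseudogenes out. The rule found 82 genes among the 54353 shared by the bulk count files and 77 among the 35237 of the single cells. Of the 82, 31 carry small-subunit and 51 large-subunit symbols, and 79 are annotated as protein coding. Rps4l, Rpl6l and Rpl32l are annotated as processed pseudogenes in spite of their symbols and stayed in.

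Each cytosolic ribosome joins a small subunit, which reads the mRNA, to a large subunit, which forms the peptide bond, and nearly every ribosomal protein is present in a single copy per particle. Their mRNAs are short, abundant and highly translated, and many begin with a run of pyrimidines (the terminal oligopyrimidine motif, TOP) through which growth signals control their translation. A few members have a duplicated copy, marked by a closing l in the symbol, that is used in particular tissues or states.

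The study followed uterine tissue-resident NK cells (trNK) of C57BL/6 mice aged 8 to 12 weeks through decidualization, the change of the uterine lining in early pregnancy. The gestation libraries held CD45+NK1.1+NKp46+CD49a+CXCR6- cells of virgin mice and of mice at gestational day (gd) 6.5 or 8.5, and the subset libraries divided these cells at gd8.5 by CD55 and 4-1BB into trNK-V (both low), trNK-D (both intermediate) and trNK-T (both high). Per the paper, both cultures began with trNK-V sorted from gd6.5 mice, in medium with IL-15. After 3 days the inhibitor culture held live NK1.1+ cells. They had no IL-21, 20 ng/mL IL-21 or IL-21 with 1 μM Stattic, a STAT3 inhibitor. The time course held trNK in IL-15 with or without 20 ng/ml IL-21 at 0, 6, 24 and 72 h. Each of the 17 groups had 2 libraries, and the single cells came from CD45+NK1.1+NKp46+ cells of 5 virgin and 2 gd8.5 uteri, mixed before capture. The labels give the mice as WT or C57BL/6 and name no deletion or transgene in any group. The IL-15 dose was 10 ng/ml in the sample labels of the time course and 15 ng/ml in the protocol. The labels do not say which libraries of a group came from separate animals or cultures. Each p-value therefore measures the spread between these libraries, which may be technical.

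The bulk libraries held 11861343 to 66462748 counts. NK genes (Ncr1, Klrb1c, Itga1 and Eomes) were present in every library, at a sum of 828 to 3473 CPM (counts per 1000000 counts of the library). The 2 libraries at 72 h without IL-21 stood apart from the other 32. They held 10724 and 11665 detected genes, against 12000 to 18276 elsewhere, and mitochondrial genes took 8.44% and 11.8% of their counts, against 0.861% to 5.73% elsewhere. The time course was made with another amplification kit than the first 3 experiments, so that kit and experiment cannot be told apart in any difference between them.

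Rps27, a zinc-finger protein of the small subunit, and its copy Rps27l, a gene known to be induced by p53, departed from the other members in comparisons within an experiment. Over all libraries, the shares of Rpl3 and Rpl13a spread more. The coding sequences of Rps27 and Rps27l are shown because reads must be told apart by these letters. Rps27 (ENSMUSG00000090733) lies on the minus strand at chr3:90212522-90213651 and Rps27l (ENSMUSG00000036781) on the plus strand at chr9:66946086-66949516, both in mm10. Each coding sequence spans 255 bases, start to stop codon, and capitals mark the 61 bases that differ between them, 53 of them at the third position of a codon.
Rps27: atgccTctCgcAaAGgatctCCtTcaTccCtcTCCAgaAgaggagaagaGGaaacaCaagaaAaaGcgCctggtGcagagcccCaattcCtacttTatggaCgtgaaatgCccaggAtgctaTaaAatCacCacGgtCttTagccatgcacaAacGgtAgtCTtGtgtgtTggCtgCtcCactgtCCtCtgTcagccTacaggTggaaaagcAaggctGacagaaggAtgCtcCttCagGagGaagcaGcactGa
Rps27l: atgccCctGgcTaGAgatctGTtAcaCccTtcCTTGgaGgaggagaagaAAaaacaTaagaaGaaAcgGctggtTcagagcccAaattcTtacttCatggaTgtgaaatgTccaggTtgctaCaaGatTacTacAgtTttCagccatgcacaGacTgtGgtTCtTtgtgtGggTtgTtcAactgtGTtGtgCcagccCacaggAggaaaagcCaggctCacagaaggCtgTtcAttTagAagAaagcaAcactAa

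The longest run of bases shared by both transcripts was 11, so a sequenced read of usual length separates Rps27 from Rps27l. The same does not hold for Rps27rt, an Rps27 retrogene outside the symbol pattern. Its coding sequence is identical to that of Rps27 in all 255 bases, and the 2 transcripts share a run of 341 bases. Counts of Rps27 and Rps27rt are therefore uncertain with respect to each other, and their sum is given beside Rps27 where it matters. For comparison, Rps27l is identical to Rps27 in 76.1% of aligned coding bases, Rpl39l to Rpl39 in 85.3%, Rpl10l to Rpl10 in 84.8% and Rpl3l to Rpl3 in 73.3%.

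A pyrimidine start was taken as C followed by 4 bases each C or T at an annotated transcription start, on the transcribed strand. With a match at any listed start of a gene counted, 14 of 60 members with a RefSeq promoter (23.3%) held one. Of all 27025 genes with a promoter, 813 (3.01%) did. Within 5 bases of a start, 29 of 60 members (48.3%) and 21.2% of all these genes held one. The windows around 3 starts are shown from 10 bases before to 20 bases from the start (RefSeq, GRCm38.p6), because Rps27 and Rps27l differ at the start itself, though both held a run within 5 bases of it, and Rps10 holds a long run. Capitals mark the run of C and T that begins at the annotated start.
Rps27, minus strand, chr3:90213629-90213658: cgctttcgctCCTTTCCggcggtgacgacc
Rps27l, plus strand, chr9:66946076-66946105: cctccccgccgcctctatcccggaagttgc
Rps10, minus strand, chr17:27635225-27635254: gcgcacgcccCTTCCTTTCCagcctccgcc

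The run was 7 bases long in Rps27 and 10 in Rps10, and no run began at this start of Rps27l, which had 2 annotated starts. These matches describe letters in the window and not the start sites used in these cells.

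Levels were first compared per length, as CPM per kilobase of exon (RPKM). The length joins all annotated exons of a gene, so it can exceed that of a single transcript. The median over libraries was above 100 RPKM for 72 of the 82 members, between 10 and 100 RPKM for 2 (Rpl22 and Rps4l) and at most 10 RPKM for 8. Rplp1, 1 of the acidic proteins of the stalk that recruits elongation factors, was among the highest with a median of 2099 RPKM, with 1009 RPKM in the lowest and 5152 RPKM in the highest library. Rplp0, the scaffold of that stalk, had a median of 1312 RPKM, and Rplp2, its other acidic protein, 270 RPKM. The highest library of Rplp2, at 490 RPKM, lay above the lowest library of Rplp0 at 423 RPKM. The lengths used were 499 bases for Rplp1, 1659 for Rplp0 and 2072 for Rplp2. In CPM, without length, the medians were 1047, 2177 and 559, so the order of these genes depended on the scale.

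**Figure D1:**
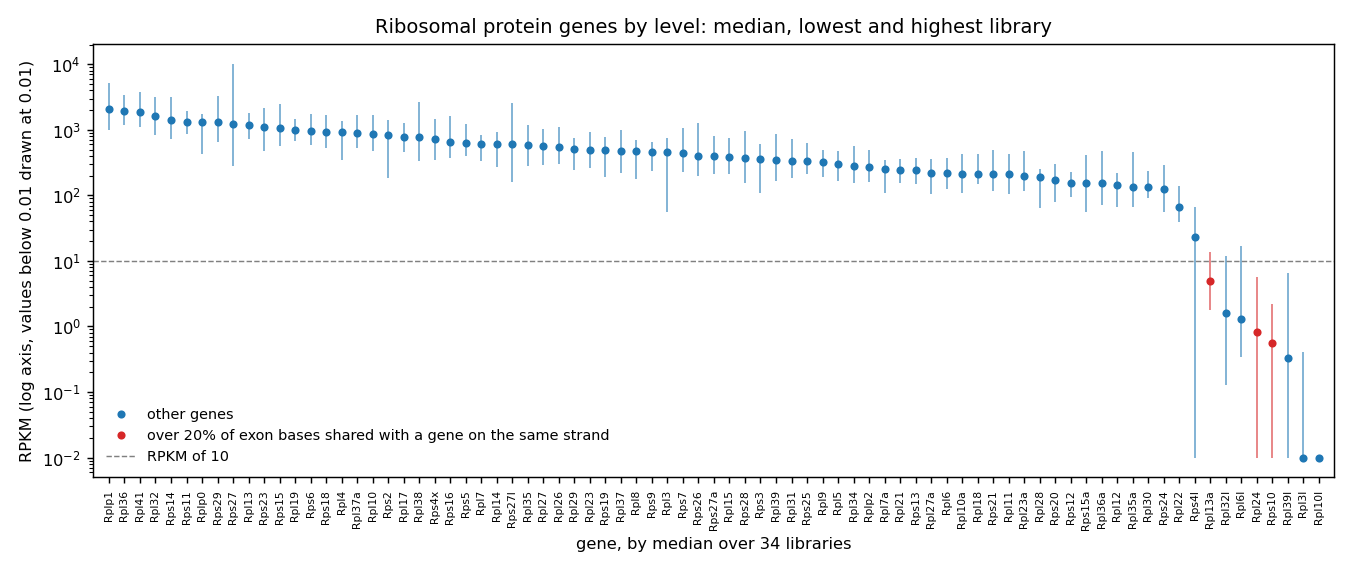
RPKM (log axis) of 79 of the 82 ribosomal protein genes, ordered by their median over 34 libraries (points), with lines from the lowest to the highest library. Rps27 has the longest line among the abundant genes, reaching 10207 RPKM, and the medians of the 3 genes in red (Rpl13a, Rpl24 and Rps10), which share over 20% of their exon bases with a gene on the same strand, lie below 10 RPKM.

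Of the low members, 3 are ordinary subunits that every ribosome holds. Rpl24 had a median of 0.819 RPKM, Rps10 of 0.569 RPKM and Rpl13a of 5.01 RPKM. In the annotation, 47.0% of the exon bases of Rpl24 overlapped another gene on the same strand (Gm28037). The part overlapped was 35.4% for Rpl13a, with Gm45713 as the largest overlap, and 20.6% for Rps10, with RPS10-NUDT3 as the largest. Each of these 3 named genes had a median of 0 CPM. No other member shared over 20% of its exon bases on the same strand. By contrast, Rpl35 and Rpl23a were covered to 66.2% and 62.3%, almost wholly by genes of the opposite strand, and had medians of 587 and 201 RPKM. In the single cells, counted by another pipeline and annotation, Rpl13a (505 UMIs), Rps10 (372 UMIs) and Rpl24 (22 UMIs) were again among the lowest of the 77 members, at ranks 71, 72 and 74. The part of the overlaps in these values was not tested.

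The copies differed in level. Rps27l had a median of 597 RPKM, against 1247 RPKM for Rps27, and the ranges of 157 to 2534 and 283 to 10207 RPKM overlapped. Rpl39l was counted in 18 of the 34 libraries with a highest value of 6.55 RPKM, and Rpl3l in 2 libraries with at most 0.402 RPKM. Rpl10l, whose parent Rpl10 was abundant, had 0 counts in all 34 libraries, which allows up to 0.00298 CPM over their summed counts, and 0 UMIs in 4338 cells, which allows a share of up to 0.0692% of cells with a UMI. Rps4l, a pseudogene copy of the Rps4 family, had a median of 23.3 RPKM.

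Together the members took 4.76% to 11.9% of all counts of a library. The share was 6.05% and 6.79% in virgin trNK. It was 4.76% and 5.69% on gd6.5, and 7.07% and 7.35% on gd8.5. The gd8.5 libraries were the highest of the 3 gestation groups and the gd6.5 libraries the lowest, with no overlap between groups. Among the subsets it was 5.56% and 5.10% in trNK-V, 5.79% and 6.05% in trNK-D and 6.27% and 5.58% in trNK-T, and trNK-T spanned trNK-D.

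In culture the 2 libraries of a group differed more than the groups did. The share was 9.42% and 6.83% without IL-21, 8.34% and 5.29% with IL-21 and 5.80% and 7.54% with IL-21 and Stattic. In the time course it was 11.8% and 10.7% at 0 h, 9.40% and 10.9% at 6 h, 9.31% and 10.3% at 24 h and 9.25% and 9.38% at 72 h without IL-21. With IL-21 it was 11.9% and 11.2% at 0 h, 8.83% and 8.53% at 6 h, 8.93% and 9.52% at 24 h and 6.71% and 7.82% at 72 h. The libraries with IL-21 lay below those without at 6 h and at 72 h, and overlapped them at 0 and 24 h. With 2 libraries a group, an exact two-sided permutation test of a single value cannot go below p = 0.333, so these shares were compared by their overlap alone. In bulk libraries, fewer cells of a type and less RNA per cell cannot be told apart.

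**Figure D2:**
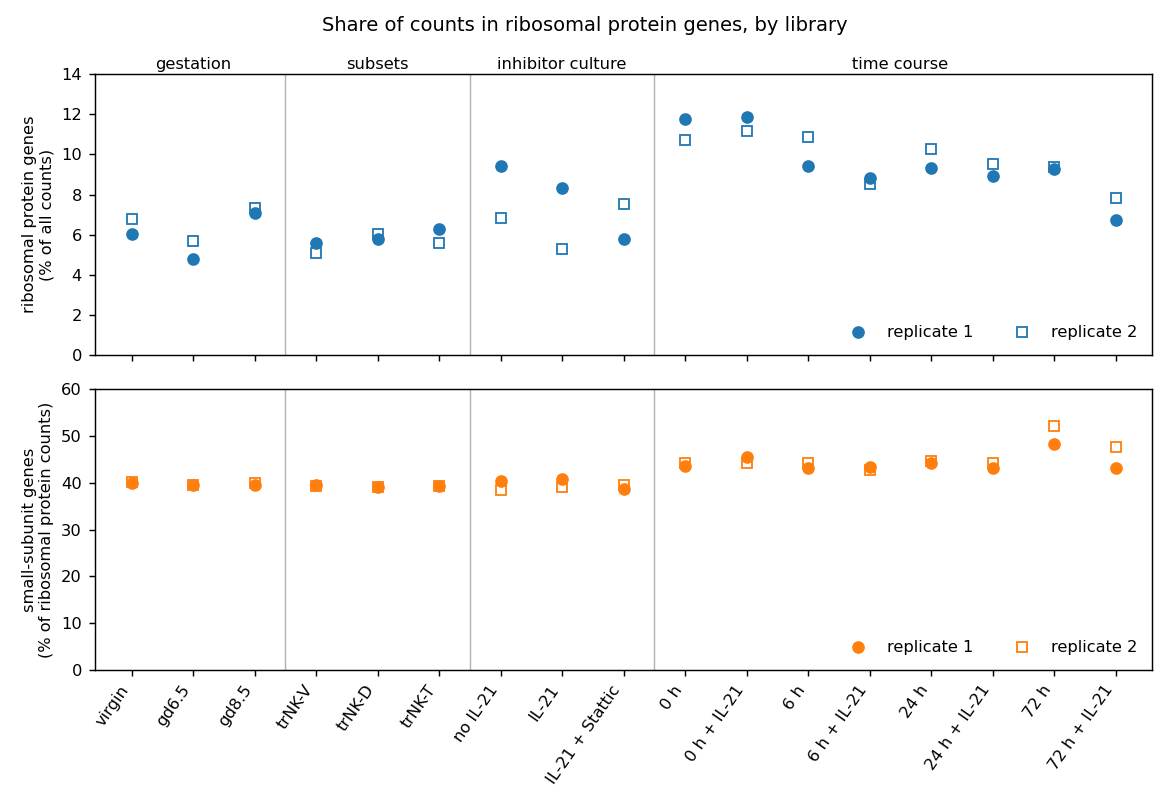
Ribosomal protein genes as a percentage of all counts (top) and small-subunit genes as a percentage of the ribosomal protein counts (bottom) in each of 34 libraries, by group and experiment, with filled circles for replicate 1 and open squares for replicate 2. The highest points of the top panel are at 0 h of the time course, where the libraries span 10.7% to 11.9%. Replicate 2 at 6 h without IL-21, at 10.9%, lies within that span. The bottom panel is flat in the first 3 experiments and reaches 48.4% and 52.1% at 72 h without IL-21.

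Small-subunit genes took 38.5% to 40.8% of the member counts in the 18 libraries outside the time course and 42.9% to 47.6% in the 14 time-course libraries other than those at 72 h without IL-21. At 72 h without IL-21 they took 48.4% and 52.1%. With Rps27 left out of the members, these 2 libraries fell to 43.9% and 46.0%, and all other time-course libraries lay between 40.5% and 43.8%.

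Single members kept very different degrees of constancy. Over the 74 members tested in at least 1 experiment and counted in every library, the SD of the log2 share of the member counts ran from 0.115 to 1.30, with a median of 0.305. Rpl7, a large-subunit protein, took 1.74% to 2.55% of the member counts over all libraries, a highest value 1.46 times the lowest. Rps27 took 0.530% to 11.3%, a 21.4-fold range, and Rps27l 0.234% to 1.83%, a 7.82-fold range. Rpl3, a large-subunit protein that reaches towards the peptidyl transferase centre, took 0.228% to 3.65%, which is 16-fold (Rpl7 and Rpl3 were chosen after their values were seen).

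Part of this range separated the experiments. For 18 of the 73 members tested in all experiments and counted in every library (24.7%), the share of the member counts in the 16 time-course libraries did not overlap that in the other 18, 10 being higher in the time course and 8 lower. Of the 2514 genes that met the same conditions, 13.9% did not overlap when their counts were set against the member counts. By CPM the order was the other way, with 7 of the 73 members (9.59%) and 16.5% of the 2514 genes not overlapping. Rpl3 took 1.78% to 3.65% of the member counts outside the time course and 0.228% to 1.08% within it. Rps27l went the other way, from 0.234% to 0.671% outside to 0.995% to 1.83% within. The kit and the experiment of these libraries cannot be told apart, and every comparison below stays within 1 experiment.

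For gestation, 75 members were among the 4504 genes tested (genes above 10 RPKM in both libraries of any group). At gd6.5 against virgin, 72 of the 75 had a negative log2 fold change, with a median of -0.41, against -0.02 over all genes tested. The libraries of 55 of the 75 members did not overlap, against 60.1% of all genes. edgeR's quasi-likelihood test with Benjamini-Hochberg adjustment called 0 members, against 9.33% of all genes. An unadjusted p under 0.05 was found for 32 members and 1474 of the 4504 genes. DESeq2 called 23 members and limma 2. The edgeR count was 17 without virgin replicate 1 and 8 without virgin replicate 2. The member median was -0.22 without virgin replicate 2 and -0.31 to -0.55 without each of the others.

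Rps27 had the lowest value relative to the member median among the members whose libraries did not overlap, at 933 and 701 CPM in virgin trNK and 325 and 550 CPM at gd6.5. Its log2 fold change was -0.99 (SE 0.28, edgeR adjusted p = 0.0705). Both gd6.5 libraries lay below both virgin libraries. Rps27l was at 185 and 317 CPM in virgin trNK, 304 and 271 CPM on gd6.5, then 292 and 296 CPM on gd8.5, and the groups overlapped. Rps4l had the highest log2 fold change of the members at gd6.5, 1.20 (SE 0.66, edgeR adjusted p = 0.254).

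At gd8.5 against gd6.5, 74 of the 75 members had a positive log2 fold change, with a median of 0.53, and the libraries of 72 of the 75 did not overlap, against 68.9% of all genes. The test again called 0 members, and 0% of all genes, although 52 members and 1071 of the 4504 genes had an unadjusted p under 0.05. DESeq2 called 26 and limma 0. At gd8.5 against virgin the median was 0.10, and 0 members but 638 of the 4504 genes had an unadjusted p under 0.05. edgeR, DESeq2 and limma each called 0 members, with 0.422% of all genes called by edgeR. This edgeR count was 6 without virgin replicate 2.

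Within gd8.5, the comparison of trNK-T with trNK-V asked how cells high for CD55 and 4-1BB differed from those low for both, and single members departed in both directions. Of 75 members tested among 4683 genes, 11 rose and 2 fell, or 13 called against 34.6% of all genes (15.1% higher and 19.5% lower). The share of members called was below the background. Of these 13, 4 (Rps27l, Rpl13a, Rps27 and Rps4l) also passed a 2-fold change, against 21.2% of all genes. The member median was 0.20, and 23 members and 2255 of the 4683 genes had an unadjusted p under 0.05.

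Rps27l rose the most. It was at 144 and 128 CPM in trNK-V, 208 and 280 CPM in trNK-D and 349 and 308 CPM in trNK-T. The 3 groups did not overlap, with trNK-D between the others. The log2 fold change of trNK-T against trNK-V was 1.27 (SE 0.20, edgeR adjusted p = 0.00645), and it stayed past the threshold in all 10 alternatives, including each library left out in turn.

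Rps27 fell. It was at 959 and 906 CPM in trNK-V, 869 and 598 CPM in trNK-D and 516 and 296 CPM in trNK-T, again without overlap and in the opposite order. Its log2 fold change was -1.20 (SE 0.30, edgeR adjusted p = 0.0241). The sum of Rps27 and Rps27rt went from 1055 and 1013 CPM in trNK-V to 575 and 333 CPM in trNK-T. Rps27rt alone had a log2 fold change of -1.07 (SE 0.29, edgeR adjusted p = 0.0302).

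Rps4l fell by 1.46 on the log2 scale (SE 0.37, edgeR adjusted p = 0.0262), from 56.1 and 39.7 CPM in trNK-V to 21.8 and 12.8 CPM in trNK-T. Rpl5, which with Rpl11 carries the 5S rRNA into the large subunit, rose from 851 and 741 CPM to 1346 and 1433 CPM, a log2 fold change of 0.81 (SE 0.16, edgeR adjusted p = 0.0131). Rplp0 rose from 1811 and 1451 CPM to 2374 and 2457 CPM, a log2 fold change of 0.57 (SE 0.17, edgeR adjusted p = 0.0417). Rplp0 and Rpl5 were high in both trNK-T libraries, and neither gene overlapped between these groups.

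Among the other risers were Rps2 of the small subunit (a log2 fold change of 0.67), Rpl7a (0.66), Rpl29 (0.60), Rpl35a (0.58) and Rpl4 (0.45). Rpl13a, at 14.7 and 10.3 CPM in trNK-V and 24.8 and 29.1 CPM in trNK-T, had a log2 fold change of 1.11 (SE 0.34, edgeR adjusted p = 0.0450), and its low counts share the annotation overlap described above. Of the 10 alternatives, 7 ended the call of Rpl13a, 7 that of Rpl35a, 6 that of Rpl4, 6 that of Rps2, 5 that of Rpl7a and 4 that of Rpl29. Rplp1 was at 688 and 612 CPM in trNK-V and 673 and 511 CPM in trNK-T, and Rplp2 at 476 and 405 CPM and 540 and 417 CPM. The groups overlapped for both acidic stalk genes, and neither passed the test. The call of their scaffold Rplp0 was lost in 7 of 10 alternatives, with each library left out (adjusted p = 0.0567 to 0.162), with the replicate block (0.0517), with another filter (0.0511) and when scaled to the members (0.150), and the difference between the stalk genes was not tested.

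Scaling the counts to the members alone, so that a call is a departure from the other members, left 7 calls against 33.9% of all genes, 2 higher (Rps27l and Rpl5) and 5 lower (among them Rps4l, Rps27, Rpl37a and Rpl13). This scaling lowers all members alike, and the split of 2 higher to 5 lower, against 11 to 2 above, is set by that centring. Most of the 13 calls depended on single libraries. They numbered 4 without trNK-V replicate 1, 1 without trNK-V replicate 2, 4 without trNK-T replicate 1 and 1 without trNK-T replicate 2, and Rps27 had adjusted p = 0.0174 without trNK-T replicate 1 and 0.0888 to 0.102 without each of the others. The other filter on low values also ended the calls of Rps27 (a log2 fold change of -1.02, adjusted p = 0.0725) and Rps4l (-1.28, adjusted p = 0.0772).

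Sums over marker lists of other cells moved with these groups. The 6 macrophage genes summed to 31.2 and 369 CPM in trNK-V, 310 and 429 CPM in trNK-D and 4.98 and 6.66 CPM in trNK-T. Of these genes 1 was tested and fell (Lyz2), and Csf1r was at 0 in both trNK-T libraries and in trNK-V replicate 1. Most of the sum was Lyz2, at 25.3 and 354 CPM in trNK-V and 2.59 and 6.07 CPM in trNK-T. C1qa, C1qb and C1qc were each at 8.18 CPM or less in every subset library. The 6 T cell genes summed to 358 and 367 CPM in trNK-V, 122 and 202 CPM in trNK-D and 65.2 and 46.1 CPM in trNK-T. Of these genes 2 of 2 tested were lower, and Cd8a was at 0 in all 6 libraries. Most of the sum was Cd3g, at 267 and 258 CPM in trNK-V and 58.7 and 44.8 CPM in trNK-T, and Cd3d. Cd3e was at 5.13 CPM or less in every subset library. The 6 stromal genes summed to 344 CPM in trNK-V replicate 1 and to 3.29 to 29.2 CPM in the other 5 libraries. Of 4 tested NK genes Klrb1c and Ncr1 fell. Whether such cells were present, and their part in the changes, were not tested.

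At trNK-D against trNK-V, edgeR called 0 of 75 members, with 6 at an unadjusted p under 0.05 and 0.32% of all genes called, DESeq2 1 and limma 0. Rps27l had the highest log2 fold change there, 0.86 (SE 0.20, edgeR adjusted p = 0.128). At trNK-T against trNK-D, edgeR called 0 members with 3 at an unadjusted p under 0.05 and 1.84% of all genes called, DESeq2 1 and limma 0. Rps27 had a log2 fold change of -0.86 (SE 0.29, edgeR adjusted p = 0.159) in this step. Of the 4683 genes tested, 939 at trNK-D against trNK-V and 1072 at trNK-T against trNK-D had an unadjusted p under 0.05.

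Genes that work with the ribosome were counted from lists drawn up with earlier results of these data known. At trNK-T against trNK-V, 15 of 35 initiation factors rose and 2 fell (median 0.43 on the log2 scale, against -0.01 over all genes tested, of which 15.1% rose and 19.5% fell), and 5 of 7 tested elongation factors rose and 0 fell, with a median of 0.71. The largest rise among the first was Eif1a, a factor of start codon scanning, at 1.38, and Eif4a2, a helicase, fell by 0.69 on the log2 scale. Among the second, Eef1e1, a protein of the tRNA synthetase complex, rose by 1.14 and Eef1g, a subunit of elongation factor 1, by 1.12. Of 11 mRNAs known to begin with a TOP motif, of which Eef1a1, Eef1b2 and Eef2 are also on the elongation list, 5 rose and 1 (Vim) fell, with a median of 0.49. Of 7 tested ribosomal proteins outside the symbol pattern, Rack1, a small-subunit scaffold, rose by 0.76 and Rps27rt fell, and of 5 tested regulators of TOP mRNA translation 0 rose and 0 fell.

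In the inhibitor culture, which asked whether IL-21 acts through STAT3, the member median was near 0, but changed sign with a library left out. For IL-21 against none, edgeR, DESeq2 and limma each called 0 of 74 members, with 0 at an unadjusted p under 0.05 and 0.289% of all genes called by edgeR. The same 3 counts of 0 held for IL-21 with Stattic against IL-21 (2.96% of all genes called) and against no IL-21 (4.74%), again with 0 members at an unadjusted p under 0.05. Of the 4158 genes tested, 382, 824 and 936 had an unadjusted p under 0.05 in these 3 comparisons. The member medians were -0.00, 0.05 and -0.00, and with each library left out they ran from -0.52 to 0.39, -0.31 to 0.60 and -0.30 to 0.42. Here Rps27l again stood at the ends of the set.

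Rps27l was at 415 and 160 CPM without IL-21, 560 and 286 CPM with IL-21 and 161 and 215 CPM with IL-21 and Stattic. The first group overlapped both others, while the 2 groups with IL-21 did not overlap. It had the highest log2 fold change relative to the members for IL-21, 0.77 (SE 0.52, edgeR adjusted p = 0.768), and the lowest when Stattic was added, -1.09 (SE 0.53, edgeR adjusted p = 0.308). Neither value passed the test. Rps27 was at 1850 and 1095 CPM, 1269 and 732 CPM and 874 and 1248 CPM in the same 3 groups, which overlapped.

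Because both copies of a pair share a library's depth, the share of Rps27l in the summed counts of Rps27 and Rps27l was also set out by library. It was 13.1% and 12.4% in trNK-V, 19.3% and 31.9% in trNK-D and 40.3% and 51.0% in trNK-T. In culture it was 18.3% and 12.7% without IL-21, 30.6% and 28.1% with IL-21 and 15.5% and 14.7% with IL-21 and Stattic. The subsets did not overlap, and in culture both libraries with IL-21 alone lay above all 4 others.

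In the time course this share was 34.3% and 39.0% at 0 h, 35.7% and 37.9% at 6 h, 27.6% and 24.8% at 24 h and 16.2% and 13.0% at 72 h without IL-21. With IL-21 it was 36.8% and 35.4% at 0 h, 52.0% and 47.4% at 6 h, 47.1% and 46.6% at 24 h and 18.5% and 18.6% at 72 h. Both libraries with IL-21 lay above both without at 6, 24 and 72 h and not at 0 h, when cells had spent no time with it. In gestation it was 16.5% and 31.1% in virgin trNK, 48.4% and 33.1% on gd6.5, then 29.7% and 29.3% on gd8.5, with virgin and gd8.5 overlapping. The pair was looked at for its changes in these data, so its share is given as a description, with no test.

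**Figure D3:**
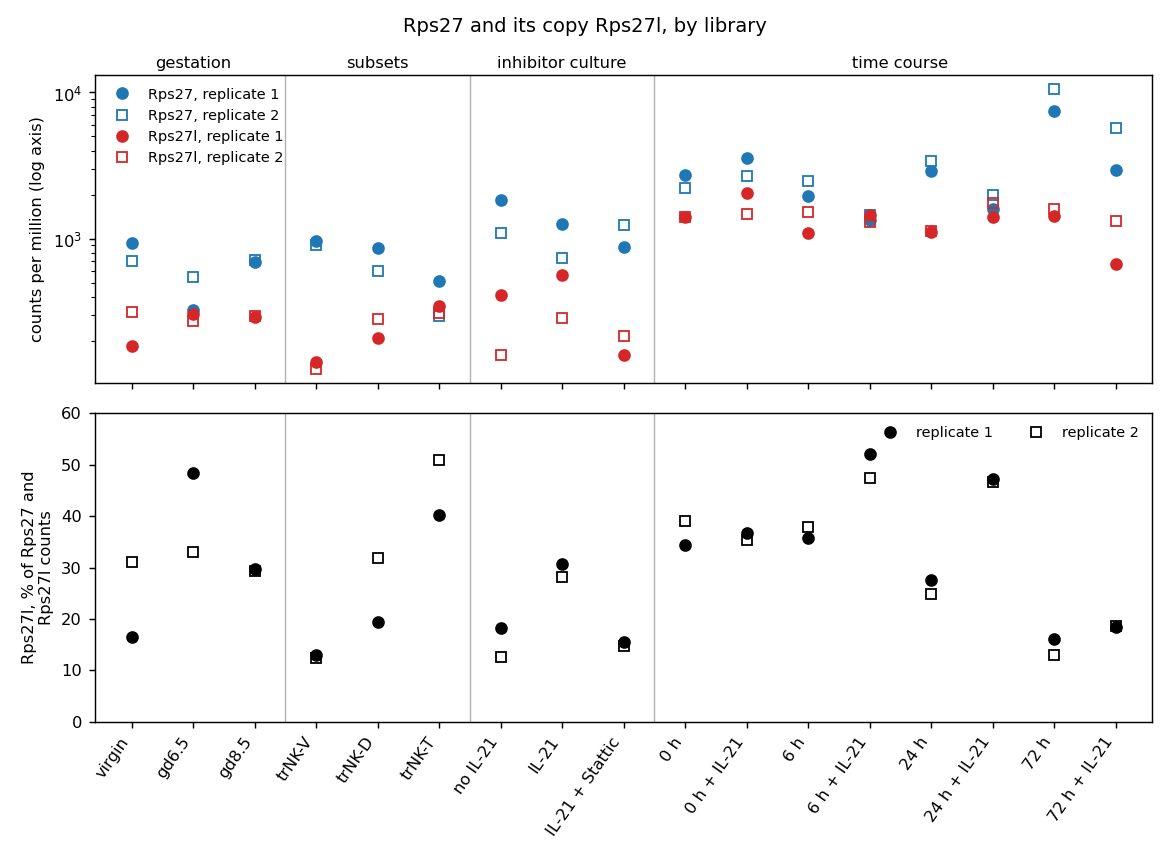
CPM (log axis) of Rps27 (blue) and Rps27l (red) in 34 libraries by group (top), and Rps27l as a percentage of the counts of both (bottom), with filled circles for replicate 1 and open squares for replicate 2. The percentage rises from 12.4% and 13.1% in trNK-V to 40.3% and 51.0% in trNK-T, and the libraries with IL-21 lie above those without at 6, 24 and 72 h. In the 3-day culture the libraries with IL-21 alone, at 28.1% and 30.6%, lie above those without IL-21 and those with IL-21 and Stattic.

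In the time course 74 members were among 3503 genes tested. For IL-21 at 0 h edgeR called 0 members (3 at an unadjusted p under 0.05, 0% of all genes called), and DESeq2 and limma 0. At 6 h the member median was -0.25, 61 of 74 log2 fold changes were negative, and edgeR called 0 members (5 at an unadjusted p under 0.05, 2.2% of all genes called), as did DESeq2 and limma. At 24 h the median was -0.01, and edgeR called 0 (9 at an unadjusted p under 0.05, 1.8% of all genes called), DESeq2 3 and limma 0. At 72 h the median was -0.35, 62 of 74 were negative, and edgeR called 0 (13 at an unadjusted p under 0.05, 9.39% of all genes called), DESeq2 5 and limma 0. Of the 3503 genes, 110, 429, 527 and 881 had an unadjusted p under 0.05 at 0, 6, 24 and 72 h. The 72 h libraries without IL-21 are those that stood apart by mitochondrial share and detected genes. With IL-21 at 72 h, replicate 2 held 12000 detected genes and 5.73% mitochondrial counts, the ends of the ranges over the other 32 libraries. Its 100 highest genes took 54.4% of its counts, the most of any library. The part of these libraries in the 72 h comparison was not tested. The 72 h count was 3 without replicate 1 of the libraries without IL-21 and 29 without replicate 2 of those with IL-21. The member median at 72 h was -0.11 without replicate 1 and -0.72 without replicate 2 of the libraries with IL-21, and -0.19 without replicate 2 of those without IL-21. At 6 h it was -0.40 without replicate 1 and -0.06 without replicate 2 of the libraries without IL-21.

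Rps27 was the member lowest relative to the others with IL-21 at 6 and 72 h. It was at 1957 and 2496 CPM at 6 h and 1332 and 1443 CPM with IL-21, at 2899 and 3393 CPM at 24 h and 1584 and 1992 CPM with IL-21, and at 7413 and 10646 CPM at 72 h and 2941 and 5750 CPM with IL-21. The libraries with IL-21 lay below those without at each of these times. The log2 fold changes were -0.72 (SE 0.41), -0.91 (SE 0.41) and -1.07 (SE 0.41), with edgeR adjusted p = 0.560, 0.322 and 0.129, so none passed. Rps27l, in contrast, had log2 fold changes of 0.03 (SE 0.39) at 6 h, 0.40 (SE 0.39) at 24 h and -0.61 (SE 0.39) at 72 h, so that the higher Rps27l share of the pair at 6 and 72 h came with lower Rps27 and not with higher Rps27l.

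Scaled to the members, IL-21 at 24 h left 2 lower calls, among them Rps18 (1.28% of all genes called), and IL-21 at 72 h left 1 lower call, Rps24 (9.79% of all genes called). For the difference between times, 69 of all genes at 24 h minus 6 h and 647 at 72 h minus 6 h had an unadjusted p under 0.05. Tests of the difference between times called 0 members, both for 24 h minus 6 h (2 at an unadjusted p under 0.05, 0% of all genes called, DESeq2 0 and limma 0) and for 72 h minus 6 h (2 at an unadjusted p under 0.05, 4.25% of all genes called, DESeq2 1 and limma 0). The latter count was 1 without replicate 1 of the 72 h libraries without IL-21 and 1 without replicate 2 of those with IL-21.

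Among the groups without IL-21, 72 of 74 members had a negative log2 fold change from 0 to 6 h, with a median of -0.21, and edgeR called 0 (2 at an unadjusted p under 0.05, 0% of all genes called), as did DESeq2 and limma. From 6 to 24 h the median was 0.03, and edgeR, DESeq2 and limma called 0 members (0 at an unadjusted p under 0.05, 0.0856% of all genes called by edgeR). Rps27 had the highest log2 fold change in this step, 0.63 (SE 0.41, edgeR adjusted p = 0.998). Of the 3503 genes, 106 from 0 to 6 h and 197 from 6 to 24 h had an unadjusted p under 0.05.

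From 24 to 72 h, 1 member rose and 3 fell, or 4 called against 17.7% of all genes (6.39% higher and 11.3% lower), and 1 passed a 2-fold change against 14.8%. Rps27 rose by 1.89 on the log2 scale (SE 0.42, edgeR adjusted p = 0.0115), from 2899 and 3393 CPM to 7413 and 10646 CPM. In this comparison the log2 fold changes carry TMM scaling and the CPM values do not, so their sizes differ. The sum of Rps27 and Rps27rt rose from 3058 and 3572 CPM to 8007 and 11235 CPM, and Rps27rt by 2.16 (SE 0.38, edgeR adjusted p = 0.00331). At 72 h Rps27 alone took 8.01% and 11.3% of all ribosomal protein counts, against 3.12% and 3.31% at 24 h.

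Rplp0 fell by 0.87 (SE 0.17, edgeR adjusted p = 0.00600), from 1819 and 2020 CPM to 959 and 702 CPM. Rps2 fell by 0.95 (SE 0.28, edgeR adjusted p = 0.0378), from 1038 and 1314 CPM to 622 and 356 CPM. The groups did not overlap for Rps27, Rplp0 or Rps2, and replicate 2 at 72 h was farther from 24 h than replicate 1 for each.

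Both 72 h libraries are those with high mitochondrial shares and few detected genes, and their part in these values was not tested. The 4 calls became 1 without 24 h replicate 1, 1 without 24 h replicate 2, 10 without 72 h replicate 1 and 1 without 72 h replicate 2. Rps27 had adjusted p = 0.0886, 0.0729, 0.00466 and 0.0522 in these fits, with a log2 fold change of 1.43 to 2.11. Scaled to the members, 9 departed against 14.4% of all genes, Rps27, Rps15a and Rps21 higher and Rpl10, Rpl28, Rpl10a, Rpl21 and Rplp0 among the 6 lower. Rps21, a small-subunit protein, was at 188 and 193 CPM at 24 h and 245 and 321 CPM at 72 h, and Rpl28, of the large subunit, at 301 and 351 CPM and 186 and 117 CPM.

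The log2 fold changes at 72 h were also set against transcript length. With the 74 members cut into 3 classes of length, the shortest (271 to 577 bases) had a median log2 fold change of 0.24, and 21 of 25 values were positive. The middle class (583 to 833 bases) had 0.03, with 13 of 24 positive, and the longest (835 to 3706 bases) -0.13, with 11 of 25 positive. Spearman's rho between length and log2 fold change was -0.43 over the 74 members and -0.18 over the 3503 genes, all of which share the same 4 libraries and are not independent. For trNK-T against trNK-V the classes had medians of 0.13, 0.12 and 0.31, and rho was 0.21 over 75 members and -0.08 over all genes. For IL-21 at 0 h rho was -0.48 over the 74 members and -0.07 over all genes, and at 6, 24 and 72 h it was 0.38, 0.11 and 0.31 over the members and 0.32, 0.14 and 0.14 over all genes. The sign of the relation thus differed between comparisons.

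**Figure D4:**
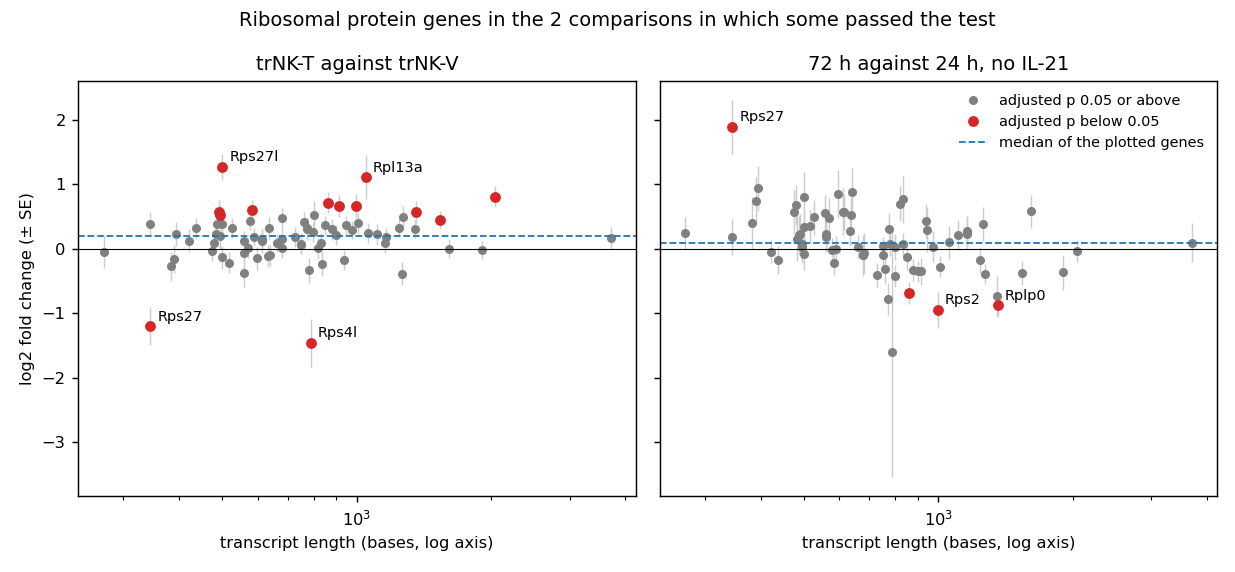
Log2 fold change (± SE) of each tested ribosomal protein gene against the length of its principal transcript (bases, log axis), for trNK-T against trNK-V (left, 75 genes) and 72 h against 24 h without IL-21 (right, 74 genes), with genes at an edgeR adjusted p below 0.05 in red and the median of the plotted genes dashed. Rps27, among the shortest, is at -1.20 on the left and 1.89 on the right, and on the right the longest class of the genes has a median of -0.13.

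Of the ribosome-associated lists at 72 against 24 h, 1 of 7 tested ribosomal proteins outside the pattern rose (Rps27rt) and 2 fell (Rpsa, by 0.81, and Rack1, by 0.52), where 6.39% of all genes rose and 11.3% fell. Of 28 tested initiation factors Eif1b, a relative of the start codon factor Eif1, rose by 0.98 and Eif3i, a subunit of the largest initiation complex, fell by 1.43. Of 7 tested elongation factors 0 rose and 0 fell, with a median of -0.55, and of 11 TOP mRNAs 0 rose and 0 fell, with a median of -0.32.

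The single-cell files each held a different set of genes for the same 15175 barcodes, with virgin and gd8.5 cells together. The tags that tell the mice apart were not used here, so the cells count as 1 sample with no test between conditions. Cells with over 200 and under 2500 UMIs and under 10% mitochondrial UMIs were kept, which left 4338 cells with a median of 1607 UMIs, and 8849 barcodes had 2500 UMIs or more. Of the 77 members, 76 had UMIs, and together they took 10.6% of all UMIs. Rplp1 led with 26703 UMIs and Rps27 was second with 22813 UMIs, while Rps27l ranked 70th with 878 UMIs.

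Marker genes named all but 4 of the 16 clusters, those 4 (442 cells, with 10.5% of UMIs in the members) stayed unnamed, and no doublet caller was run. The share of UMIs in the members was 16.1% in 189 T cell-like cells, 12.7% in 1733 trNK-like cells, 11.8% in 231 B cell-like cells and 10.9% in 109 stromal-like cells. It was 8.08% in 842 cNK-like cells (cNK, conventional NK), 7.81% in 717 macrophage-like cells, 2.10% in 13 neutrophil or monocyte-like cells and 1.83% in 62 erythroid-like cells. Exact 95% binomial intervals, which cover counting error only, did not overlap between neighbours in this order except at its low end, where 1.89% to 2.32% met 1.75% to 1.91%. With no upper limit on UMIs the order changed at the low end, with 9.31% in macrophage-like, 8.79% in neutrophil or monocyte-like, 8.75% in cNK-like and 7.09% in erythroid-like cells. At the high end, 2 clusters that stayed unnamed in that setting, the cluster with terminal trNK markers (1208 cells, 17.3%) and another of 776 cells (19.0%), lay above T cell-like cells at 16.1%, and only the cluster with virginal trNK markers (14.5%) counted as trNK-like. The thresholds for naming the clusters were set after the clusters were seen, so these shares are a description.

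Per cell, the interquartile range ran from 13.2% to 18.8% in the T cell-like class, 8.20% to 14.9% in the trNK-like class and 6.04% to 9.62% in the cNK-like class, so that the trNK-like range overlapped both others. The share also differed with depth. It was 4.79% in cells of 200 to 500 UMIs, 11.1% in cells of 1500 to 2500 UMIs, 15.3% in cells of 5000 to 10000 UMIs and 13.9% in cells above 10000 UMIs, the last 2 of which lay outside the limits. The median depth of the 3 classes was 1799, 1568 and 1593 UMIs.

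**Figure D5:**
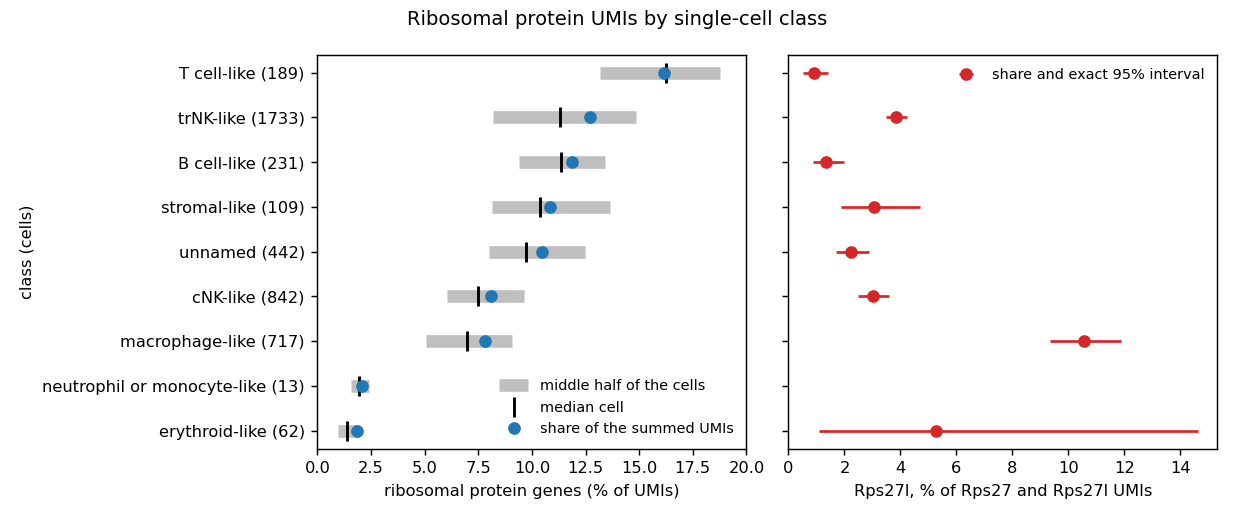
Left, ribosomal protein genes as a percentage of UMIs in each single-cell class (cells in brackets), as the share of the summed UMIs (point), the median cell (tick) and the interquartile range of the cells (bar). Right, Rps27l as a percentage of the UMIs of Rps27 and Rps27l with its exact 95% interval, for classes with at least 50 UMIs of the pair. It is highest in macrophage-like cells, at 10.6%.

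The trNK-like class joined 5 clusters. Its lowest member share, 8.55%, was in 269 cells whose leading genes were noncoding RNAs (Gm26917 and Rmrp) and whose mitochondrial share was 6.04%, and its highest, 14.2%, in a cluster of 408 cells. The median depth of those 269 cells was 744 UMIs, against 1578 to 1865 UMIs in the other clusters of the class, and the part of depth in their low share was not tested. Over the whole class, the share of the member UMIs relative to all kept cells was highest for Rps15a (1.11 times) and lowest for Rps29 (0.917 times). The class held 340585 of the 736709 member UMIs, which draws its ratios towards 1.

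In macrophage-like cells Rps27l took 2.38 times and Rps29 1.56 times its share over all cells, and Rps7 0.724 times. In T cell-like cells Rpl12 took 1.43 times and Rpl29 0.479 times its share, and in B cell-like cells Rps19 took 1.35 times and Rpl29 0.490 times. In stromal-like cells Rps19 took 1.53 times and Rpl27 0.614 times, and in cNK-like cells Rpl10 took 1.22 times and Rps19 0.698 times. Rps19, a small-subunit protein mutated in Diamond-Blackfan anaemia, was thus high in B, T and stromal cells and low in cNK cells, and Rps10 stood high in macrophage-like cells (1.52 times) on 66 UMIs.

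The share of Rps27l in the UMIs of the pair was 0.896% in T cell-like, 1.36% in B cell-like, 3.00% in cNK-like, 3.84% in trNK-like and 10.6% in macrophage-like cells. The exact 95% interval of the trNK-like class, 3.47% to 4.23%, overlapped that of the cNK-like class, 2.49% to 3.59%, and that of the macrophage-like class, 9.33% to 11.9%, overlapped neither. Within the trNK-like class it was 2.30%, 4.31% and 1.48% in the 3 clusters without a dividing signature. It was 11.7% (9.77% to 13.8%) in the cluster of 260 cells with 5 dividing-cell and 5 terminal trNK markers, and 9.09% (6.38% to 12.5%) in the cluster led by noncoding RNAs, which had 5 dividing-cell markers.

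With no upper limit on UMIs, a setting added after the data were seen for this share, the deep cells entered. The share was 4.69% in the cluster with 3 virginal trNK markers (2286 cells), 15.97% in the cluster with 3 terminal trNK markers (1208 cells) and 16.1% and 23.3% in the clusters with 5 and 4 dividing-cell markers. Macrophage-like cells were at 11.8%, erythroid-like at 10.6%, stromal-like at 8.25%, B cell-like at 4.27%, cNK-like at 3.92%, gamma delta T cell-like at 3.27% and T cell-like cells at 1.99%. Neutrophil or monocyte-like clusters were at 10.7% (507 cells) and 0% (13 cells). The other unnamed clusters were at 10.3% (2029 cells), 13.2% (776 cells) and 7.96% (335 cells), so high shares were not confined to the terminal-marker and dividing clusters. The median depth of the virginal-marker cluster was 2792 UMIs and that of the terminal-marker cluster 7971 UMIs. The bulk and single-cell levels of the pair are on different scales, full-length counts in one and UMIs from the transcript end in the other, and their sizes were not compared.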

How the data were processed

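Per the labels and the methods, the authors aligned bulk reads with HISAT2 2.1.0 to mm10 and deposited whole-number counts per gene. Their processing notes name featureCounts and Subread and the methods RSEM. Single-cell counts are deposited UMI counts per gene and cell from the BD Rhapsody pipeline on GRCm39. The ribosomal protein genes and all gene lists were chosen with earlier results of these data known. Genes above 10 RPKM in both libraries of any group were tested per experiment with edgeR 4.0.16 (quasi-likelihood, TMM, groups of 2 libraries, adjusted p below 0.05), checked on simulated counts. SE is the log2 fold change over the square root of F. Log2 fold changes carry TMM scaling, and printed CPM values do not. DESeq2 1.42.0, limma 3.58.1, RLE scaling, TMM over members, another filter, a replicate block and each library left out were alternatives. Cells were clustered with scanpy 1.11.5 and leidenalg 0.10.2 (20 components, 2000 variable genes, 20 neighbours, resolution 0.8), and the thresholds for naming clusters were set after the clusters were seen. Named were the l-copies with their parents, Rplp0, Rplp1 and Rplp2, the called members and, per comparison, up to 5 highest and 5 lowest relative to the member median among those not overlapping when scaled to the members. Transcript sequences are from GENCODE M21 and promoters from RefSeq. Total counts of 11861343 to 66462748 per library leave counting error small for all but the lowest members. Some members are counted but not reported by name here.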

Additional observations from a re-analysis of the deposited data

Results flagged for a closer look

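Rpl5 and Rplp2 moved in opposite directions with IL-21 at 24 h and at 72 h, every library with IL-21 lying above those without at 24 h and below them at 72 h. The log2 fold change of Rpl5 was 0.19 at 24 h and -0.40 at 72 h, and that of Rplp2 0.35 and -0.42. Libraries with and without IL-21 did not overlap for 66.0% of all genes at 24 h and 39.1% at 72 h. The search covered only the member share, the copies with their parents, the stalk genes and the called members. None of the 4 values passed edgeR's test, and the difference between the 2 times was not tested. The tested differences (24 h minus 6 h and 72 h minus 6 h) called 0 members.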

How the results depend on the processing

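Counts of called members that moved by over 1.5 times were as follows. DESeq2 called 23 at gd6.5 against virgin, 26 at gd8.5 against gd6.5, 1 at trNK-D against trNK-V, 23 at trNK-T against trNK-V, 1 at trNK-T against trNK-D, 3 for IL-21 at 24 h, 5 for IL-21 at 72 h, 7 at 72 h against 24 h and 1 for the IL-21 effect at 72 h minus 6 h, and limma called 2 at gd6.5 against virgin. TMM over the members gave 7 at trNK-T against trNK-V, 2 for IL-21 at 24 h, 1 for IL-21 at 72 h and 9 at 72 h against 24 h. The filterByExpr filter gave 7 at trNK-T against trNK-V, where it moved the called members' log2 fold changes by 0.18 to 0.19 upwards. With each library left out the counts ran from 0 to 17 at gd6.5 against virgin, 0 to 6 at gd8.5 against virgin, 1 to 4 at trNK-T against trNK-V, 0 to 29 for IL-21 at 72 h, 1 to 10 at 72 h against 24 h and 0 to 1 for the effect at 72 h minus 6 h, and a group of 1 was assumed to vary like the others. No called value changed its direction, while the member median, which no test was run on, changed sign with a library left out in 8 comparisons, the 3 in culture (given above), trNK-T against trNK-D (-0.07 to 0.11), IL-21 at 24 h (-0.12 to 0.09), 24 h against 6 h (-0.13 to 0.26), 72 h against 24 h (-0.01 to 0.19) and the effect at 72 h minus 6 h (-0.47 to 0.12). It ran from -0.44 to -0.07 at 6 h against 0 h, 0.01 to 0.30 at gd8.5 against virgin, 0.10 to 0.29 at trNK-D against trNK-V, 0.09 to 0.34 at trNK-T against trNK-V and 0.01 to 0.26 for IL-21 at 0 h. Of 188 alternative counts 156 stayed within 1.5 times. The share of all genes called was computed for the main edgeR fit and the member scaling alone. Counts under the other alternatives therefore have no such share beside them. The replicate block gave 8 at trNK-T against trNK-V and 1 for IL-21 at 72 h, and it moved no other count by over 1.5 times. Whether libraries with the same replicate number share more than that number is not known. Over groups of an experiment the correlation of same-numbered deviations ran from -0.43 to 0.54. Erythroid-like cells had a member share of 4.41% with cells limited by genes and 7.09% with no upper UMI limit, and neutrophil or monocyte-like cells 7.88% and 8.79%, on other cells. The T cell-like class had no value at a resolution of 0.4. Depth limits Rpl24, Rps10 and the rare copies, and 2 libraries a group limit every test. The causes were not tested.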
